A study of Mus musculus with 6 samples.

Results

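The genes described here encode factors that hold RNA polymerase II near the promoter or carry it through the gene body. They are the 4 subunits of the negative elongation factor NELF (Nelfa, Nelfb, Nelfcd and Nelfe), both subunits of the DRB sensitivity-inducing factor DSIF (Supt4a and Supt5), the histone chaperone gene Supt6, and 3 subunits of the PAF1 complex (Paf1, Ctr9 and Cdc73). The 10 genes were chosen by name from 27706 protein-coding and lincRNA genes, and all 10 were found in the annotation. For each, peaks of H3K27 acetylation (H3K27ac) in control cells were sought within 1 kb of the transcription start site (TSS) of any isoform, in the gene body, and within 50 kb of the gene.

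H3K27ac, a histone mark of active promoters and enhancers, was measured by ChIP-seq in ES-E14TG2a (E14) cells, a line of mouse embryonic stem cells (mESCs) that carries Rosa26-Cre and an Oct4-IRES-Puro reporter and was grown in N2B27 medium with LIF and inhibitors of MEK and GSK3. Control cells were treated with the solvent DMSO, and others for 120 min with 100 nM NVP-2, an inhibitor of the elongation kinase CDK9, or with 800 nM actinomycin D (ActD), which blocks transcription. Each condition had 2 replicates of this 1 line, with human HEK293 cells as spike-in. The values below come from the deposited control peaks, a single list pooled over both replicates, so no value has a replicate error, no test between conditions was made, and the NVP-2 and ActD libraries were not analysed here.

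After initiation, RNA polymerase II commonly pauses a short distance into the gene, where DSIF and NELF bind it. CDK9, the kinase of the positive elongation factor P-TEFb, phosphorylates both factors and the polymerase. NELF then leaves, DSIF stays on as an elongation factor, and SPT6 and the PAF1 complex join the moving polymerase.

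The list held 22973 peaks on 21 chromosomes (mm10) that covered 89.6 Mb, with a median width of 2068 bp. The list gives positions without heights, so it shows where acetylation was called and not how strong it was. Depth cannot be read from it. Adjacent peaks were at least 2001 bp apart, since the authors merged closer ones, and a peak described below can therefore be more than 1 merged peak. As a check of the cell type, the promoters of the pluripotency genes Pou5f1, Sox2 and Nanog were marked by peaks of 34042, 19693 and 36014 bp. Of genes of other cell types, Myod1 of muscle, Alb of liver, Neurod1 of neurons and Gata1 of blood, 0 of 4 were marked.

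All 10 elongation genes had an H3K27ac peak at the promoter, and each had exactly 1. In the background, 11149 of 21853 protein-coding genes were marked by the same rule, which is 51.0% (95% Wilson interval 50.4 to 51.7%, counting error only), and 43.6% of protein-coding and lincRNA genes together. Of the 11149 marked coding genes, 599 (5.37%) had more than 1 promoter peak, so a single peak was the common case. The peaks of the 10 genes were compact. Their widths ran from 832 bp at Nelfcd to 4192 bp at Supt6 with a median of 1776 bp, against 2225 bp over all marked coding genes (quartiles 1570 and 4990 bp). Of the 10 widths, 9 lay below that median, 4 below the lower quartile and 0 above the upper quartile. These are descriptions of a single pooled list and were not tested.

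**Figure D1:**
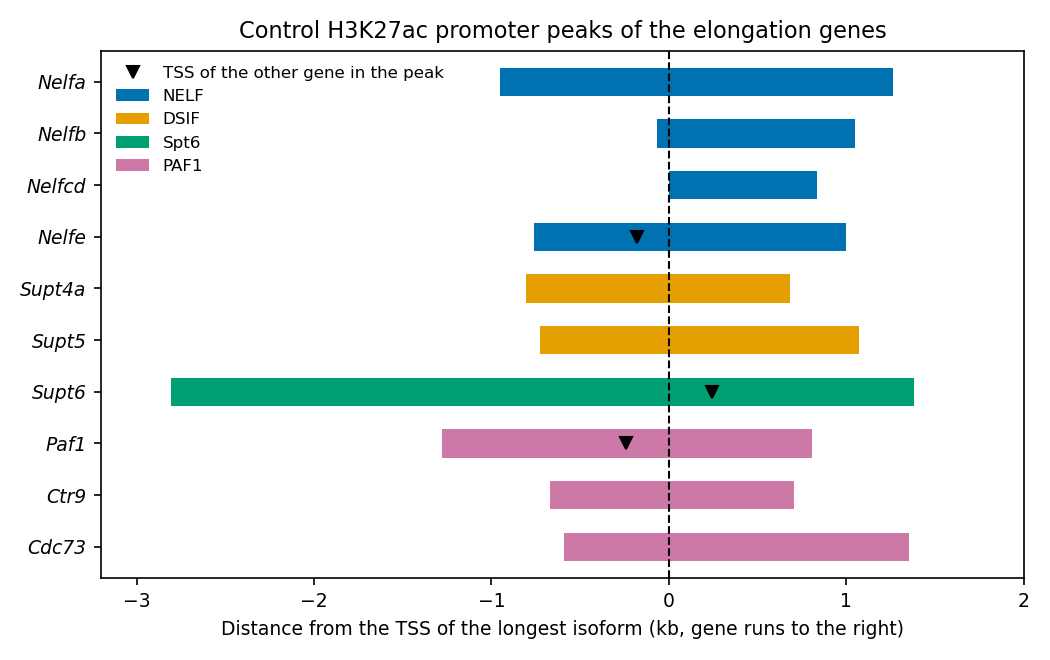
Extent of the control H3K27ac promoter peak of each elongation gene in kb from the TSS of its longest isoform, with the gene running to the right and bars coloured by complex. The peak of Nelfb reaches 69 bp upstream of the TSS and that of Nelfcd begins just after it, Supt6 has the widest peak at 4192 bp, and triangles mark the TSS of Skiv2l, Sdf2 and Med29 in the peaks of Nelfe, Supt6 and Paf1.

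The DNA directly upstream of the TSS is shown for 5 genes. Nelfb and Nelfcd are shown because it lies only in part or not at all in their peaks, Paf1 and Cdc73 as the promoters with the lowest CpG ratio and the highest GC content, and Supt4a for the least common motif found. For Supt5 and Supt6 an annotated exon lies directly upstream, so none is printed. Each line gives the 150 bases that end 1 base before the TSS of the longest isoform, on the strand of the gene, from the mm10 reference. Capitals mark GGGCGG (the box bound by SP and KLF factors), CCAAT (NF-Y), AAGATGGC (YY1) and CCCAGAATG (ZNF143), on either strand, so that the reverse complement of each is also capitalised. A match is a run of letters and not a measured binding site.
Nelfb, chr2:25211490-25211639, minus strand: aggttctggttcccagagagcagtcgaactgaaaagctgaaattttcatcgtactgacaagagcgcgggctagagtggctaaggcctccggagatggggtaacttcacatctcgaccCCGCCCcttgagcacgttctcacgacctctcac
Nelfcd, chr2:174415654-174415803, plus strand: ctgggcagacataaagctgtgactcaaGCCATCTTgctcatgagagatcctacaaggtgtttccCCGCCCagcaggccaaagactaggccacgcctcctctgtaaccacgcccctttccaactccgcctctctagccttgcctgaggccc
Supt4a, chr11:87737402-87737551, plus strand: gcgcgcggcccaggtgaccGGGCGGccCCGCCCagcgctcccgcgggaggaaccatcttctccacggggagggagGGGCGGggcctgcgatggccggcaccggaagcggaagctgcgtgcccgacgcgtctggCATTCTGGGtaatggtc
Paf1, chr7:28392801-28392950, plus strand: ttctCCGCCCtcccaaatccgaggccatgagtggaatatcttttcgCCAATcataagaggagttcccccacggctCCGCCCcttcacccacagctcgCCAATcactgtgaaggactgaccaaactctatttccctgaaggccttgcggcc
Cdc73, chr1:143702894-143703043, minus strand: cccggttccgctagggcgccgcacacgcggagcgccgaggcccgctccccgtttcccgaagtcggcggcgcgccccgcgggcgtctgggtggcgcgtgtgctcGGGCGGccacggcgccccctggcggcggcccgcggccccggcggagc

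The Nelfcd bases lie wholly outside its H3K27ac peak (0 of 150), and of the Nelfb bases 69 of 150, those next to the TSS, lie inside. All 150 bases of Supt4a, Paf1 and Cdc73 lie inside their peaks. The 5 stretches also differ in CpG sites, with 4 in Nelfcd, 7 in Paf1, 9 in Nelfb, 19 in Supt4a and 30 in Cdc73.

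NELF is a stable complex of 4 subunits, and the promoter peaks of its genes ranged from the narrowest of the 10, at Nelfcd and Nelfb, to the second widest, at Nelfa, with a median of 1436 bp. Nelfa encodes NELF-A, the human counterpart of which is also known as WHSC2. The gene (ENSMUSG00000029111.7) spans chr5:33897916-33936413 on the minus strand. Its peak, chr5:33935151-33937367, was 2217 bp wide, at percentile 49.8 of the marked coding genes, and was the widest of the NELF peaks. It reached from 954 bp upstream of the TSS to 1262 bp downstream, into intron 1.

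Nelfb encodes NELF-B, also known as COBRA1 for its binding to BRCA1. The gene (ENSMUSG00000013465.19) spans chr2:25199712-25211489 on the minus strand. Its peak, chr2:25210443-25211558, was 1116 bp wide (percentile 12.8). It began only 69 bp upstream of the TSS and ended 1046 bp downstream in exon 3, so that 93.8% of it lay downstream. Among marked coding genes with the TSS in the peak, 5.75% (556 of 9663) reached less than 100 bp upstream. Nelfb has 3 coding isoforms. Nelfb-201 and Nelfb-206 start within the peak, whereas Nelfb-202 starts 7568 bp downstream of the main TSS and had no peak within 1 kb.

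Nelfcd encodes the NELF-C and NELF-D proteins, which arise from alternative translation starts of the same gene. The gene (ENSMUSG00000016253.12) spans chr2:174415804-174427502 on the plus strand. Its peak, chr2:174415805-174416636, was the narrowest of the 10 at 832 bp (percentile 7.53). It began 1 bp after the TSS of the longest isoform, Nelfcd-202, and ended 832 bp downstream in intron 1. The other coding isoform, Nelfcd-201, starts 47 bp further downstream and had its TSS inside the peak. A TSS of the longest isoform outside the promoter peak was seen in 13.3% of marked coding genes.

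Nelfe encodes NELF-E, the RNA-binding subunit. The gene (ENSMUSG00000024369.16) spans chr17:34850391-34856372 on the plus strand, the shortest of the 10 at 5.98 kb. Its peak, chr17:34849633-34851388, was 1756 bp wide (percentile 31.9) and reached 758 bp upstream and 997 bp downstream, into intron 2. The peak also held the TSS of Skiv2l, which encodes a helicase of the RNA-degrading SKI complex. Skiv2l starts 181 bp upstream of Nelfe on the other strand, so both genes run away from a common acetylated stretch. The peak cannot be divided between them.

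DSIF is a heterodimer of SPT4 and SPT5, and both of its genes had peaks that lay on either side of the TSS. Supt4a, which encodes the small zinc-finger subunit SPT4, spans chr11:87737552-87743623 on the plus strand (ENSMUSG00000020485.14). Its peak, chr11:87736746-87738232, was 1487 bp wide (percentile 22.4), reaching 806 bp upstream and 680 bp downstream to exon 2. Supt5 encodes SPT5, the large subunit that P-TEFb phosphorylates. It spans chr7:28314891-28338746 on the minus strand (ENSMUSG00000003435.9). Its peak, chr7:28337648-28339443, was 1796 bp wide (percentile 33.6), from 724 bp upstream to 1071 bp downstream in intron 2. Both coding isoforms of Supt5, which start 13 bp apart, lay within it.

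Supt6 encodes SPT6, a histone chaperone that travels with elongating RNA polymerase II. The gene (ENSMUSG00000002052.6) spans chr11:78206746-78245987 on the minus strand. Its peak, chr11:78244604-78248795, was the widest of the 10 at 4192 bp (percentile 70.5) and the only one above the median of marked coding genes. It reached 2808 bp upstream and 1383 bp downstream, into intron 1, so 33.0% of it lay downstream of the TSS. The start codon of the longest isoform lies 12334 bp beyond the TSS and outside the peak, whereas in the other 9 genes the start codon was inside. It was inside in 66.3% of marked coding genes. The peak also held the TSS of Sdf2, on the plus strand. Sdf2 starts 241 bp inside Supt6, so the 5′ ends of these genes overlap and what lies upstream of Supt6 is the body of Sdf2.

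The PAF1 complex is a scaffold on elongating polymerase that is needed for ubiquitination of histone H2B. Paf1 gives the complex its name. The gene (ENSMUSG00000003437.14) spans chr7:28392951-28399388 on the plus strand. Its peak, chr7:28391673-28393758, was 2086 bp wide (percentile 47.6), with 1278 bp upstream and 807 bp downstream to intron 2. The peak was shared with Med29, which encodes a Mediator subunit and starts 243 bp upstream on the minus strand.

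Ctr9 encodes a tetratricopeptide-repeat scaffold subunit and spans chr7:111028951-111056377 on the plus strand (ENSMUSG00000005609.16). Its peak, chr7:111028280-111029654, was 1375 bp wide (percentile 19.1) and nearly symmetrical, with 671 bp upstream and 703 bp downstream. Cdc73, which encodes parafibromin, is the longest of the genes at 104.0 kb and spans chr1:143598800-143702893 on the minus strand (ENSMUSG00000026361.9). Its peak, chr1:143701542-143703486, was 1945 bp wide (percentile 42.2), from 593 bp upstream to 1351 bp downstream. Both peaks ended in intron 1. The other PAF1 complex subunits had promoter peaks of 9909 bp at Leo1, 1842 bp at Rtf1 and 3941 bp at Wdr61.

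Across the 10 genes the downstream edge of the peak lay between 680 bp (Supt4a) and 1383 bp (Supt6) from the TSS. It was in intron 1 of 5 genes and in intron 2 of 3, and in 62.6% and 13.0% of marked coding genes. In the 9 genes with the TSS of the longest isoform in the peak, the upstream edge lay between 69 bp (Nelfb) and 2808 bp (Supt6), with quartiles of 671 and 954 bp, against quartiles of 807 and 1262 bp for the downstream edge. The median upstream reach was 758 bp and the median downstream reach 1046 bp, against 904 bp and 1210 bp in marked coding genes. The median share of the peak downstream of the TSS was 56.8%, against 59.4%. Of the 17 coding isoforms of the 10 genes, 16 had a promoter peak, with Nelfb-202 as the exception. Of the isoforms of all marked coding genes, 82.6% had one.

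Shared and unshared promoter peaks also differed in median width. The 3 shared peaks, of Nelfe, Supt6 and Paf1, had a median of 2086 bp, and the other 7 had a median of 1487 bp. Over all marked coding genes, 29.7% shared the promoter peak with another gene, with median widths of 2922 bp for shared and 1968 bp for unshared peaks. The difference among the elongation genes was not tested.

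Apart from the promoter peak, none of the 10 genes had a separate peak in the gene body (0 of 10), although together they span 275.0 kb. Of marked coding genes, 27.7% had at least 1 such peak. This share rises with the length of the gene, from 7.01% below 10 kb to 19.7% between 10 and 25 kb, 29.0% between 25 and 50 kb and 49.5% between 50 and 200 kb. The elongation genes fell into these length classes as 3, 3, 3 and 1. Promoter peaks covered between 1.3% of the gene at Cdc73 and 16.7% at Nelfe. A weak peak removed by the authors' height filter would not be in the list, nor would a peak removed for its distance to ATAC-seq summits. A peak close to the promoter peak would have been merged into it.

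The genes differed in how many other peaks lay around them. Within 50 kb of either end of the gene, the number of further peaks was 0 for Nelfa, 1 for Supt4a, 2 each for Ctr9 and Cdc73, 3 each for Nelfcd and Nelfe, 5 for Paf1, and 7 each for Nelfb, Supt5 and Supt6. The median was 3, against 2 in marked coding genes, of which 85.7% had at least 1, 14.3% had none and 3.55% had 7 or more. At Supt6 the number rests on the length of the gene, since 1 peak lay within 50 kb of its TSS and the other 6 lay beyond its 3′ end. At Supt5, 5 of the 7 were within 50 kb of the TSS, and at Nelfb all 7 were. Counted from the TSS, the median was 2 both in the 10 genes and in marked coding genes.

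**Figure D2:**
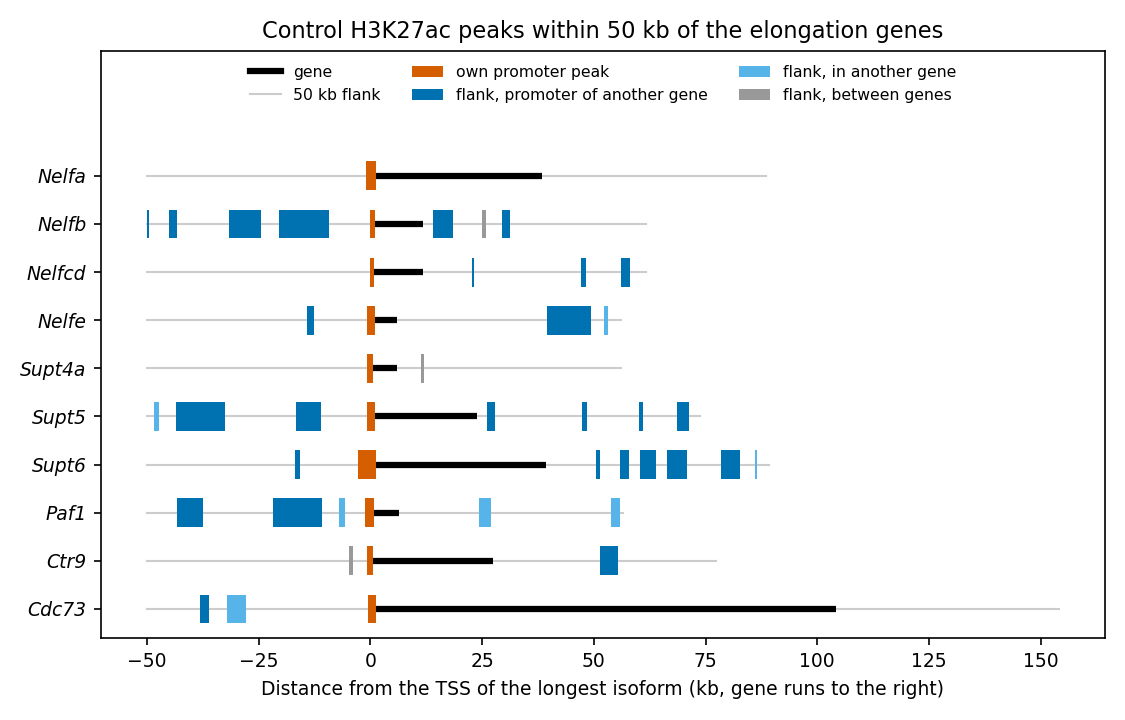
Control H3K27ac peaks around each elongation gene, in kb from the TSS of the longest isoform with the gene running to the right, from 50 kb before to 50 kb after the gene (black line) and with peaks coloured by position. No peak other than that at the promoter lies in the 10 genes, the flanks of Nelfa hold 0 peaks and those of Nelfb, Supt5 and Supt6 hold 7 each.

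Counted gene by gene there were 37 flank peaks, which were 34 different peaks because Supt5 and Paf1 lie near each other on chromosome 7 and had 3 in common. Of the 34, 25 lay at the promoter of another gene, 6 elsewhere in another gene and 3 between genes. Of the 13532 different flank peaks of marked coding genes, these classes held 53.9%, 21.7% and 24.5%. The intergenic ones were a 960 bp peak 13.2 kb beyond the 3′ end of Nelfb, a 718 bp peak 5.22 kb beyond that of Supt4a, and a 965 bp peak 3.82 kb upstream of Ctr9. The list does not tell which gene such a peak acts on.

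The nearest other peak lay within 15 kb of the promoter peak in 7 of the 10 genes and in 49.3% of marked coding genes, a distance chosen after the values were seen. The closest was that of Ctr9, at chr7:111024165-111025129 and 3.15 kb away, and was the intergenic peak just named. The next was that of Paf1, 4.47 kb away in the body of Med29. Nelfb followed with the promoter peak of the tubulin gene Tubb4b at 9.1 kb, and Supt5 with that of the ribosomal protein gene Rps16 at 10.4 kb. At Supt4a the nearest was the intergenic peak at 10.6 kb, at Nelfe the promoter peak of Dxo and Stk19 at 11.9 kb, and at Supt6 that of 2610507B11Rik at 12.9 kb. Further away were the promoter peak of Ctsz for Nelfcd (21.8 kb), a peak in Glrx2 for Cdc73 (27.1 kb) and the promoter peak of Nat8l for Nelfa (58.9 kb).

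Other genes of the elongation machinery were marked as fully, or nearly so, with median peak widths above that of the 10 genes in each list. Of 18 other elongation factors, among them the remaining PAF1 complex subunits, the FACT genes, TFIIS, elongin and the CTD kinases CDK12 and CDK13, 18 were marked, with a median width of 3554 bp. Of 17 genes of P-TEFb, its inhibitors and the super elongation complex, 16 were marked, with a median of 3942.5 bp. The unmarked one was Cdk9, the kinase itself, whose TSS lay 17.8 kb from the nearest peak. All 12 RNA polymerase II subunit genes were marked, with a median of 3022.5 bp.

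Of 33 Mediator genes 32 were marked, with a median of 1884.5 bp, the list nearest in width to the 10 genes. The exception was Med27, 15.3 kb from the nearest peak. Separate gene body peaks were found in 4 of the 18 other elongation factors, 7 of the 16 marked P-TEFb and super elongation genes, 0 of the 12 polymerase subunits and 7 of the 32 marked Mediator genes. Differences between these lists were not tested, and the lists differ in gene length and in how many promoters share a peak.

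**Figure D3:**
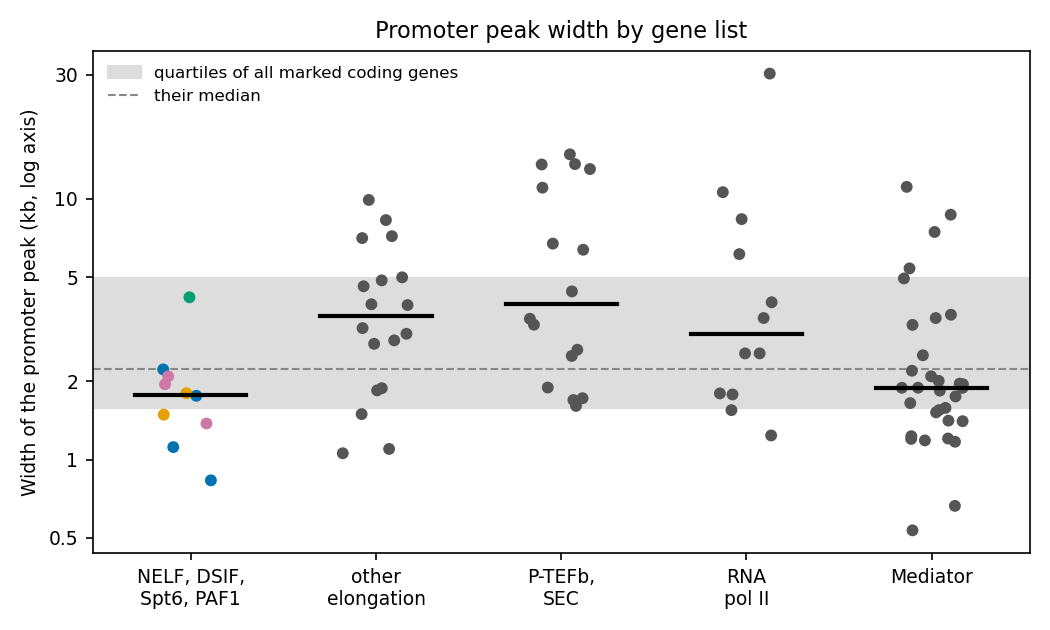
Width of the promoter peak in kb on a log axis for each marked gene of 5 lists, with the median of each list as a bar, the elongation genes coloured by complex as in the plot of peak extents, and the quartiles (1570 to 4990 bp) and median of all marked coding genes in grey. The 10 elongation genes have the lowest median, 1776 bp, and Mediator the next, 1884.5 bp.

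The promoters were described by their GC content and CpG sites. From 250 bp before to 50 bp after the TSS, the median GC content was 60.8% (53.0% at Nelfb to 79.7% at Cdc73), against 60.7% in marked and 49.7% in unmarked coding genes. The ratio of observed to expected CpG, which is 1 where CpG has the frequency that its C and G content predicts, had a median of 0.927, against 0.773 in marked and 0.244 in unmarked coding genes. It was lowest at Paf1 with 0.634, followed by Nelfb with 0.761, both below the median of marked coding genes, and highest at Nelfe and Cdc73 with 1.14 each. Over whole peaks the median ratio was 0.713 in the 10 genes and 0.579 in the promoter peaks of coding genes, and the lowest was that of the widest peak, Supt6, with 0.485.

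**Figure D4:**
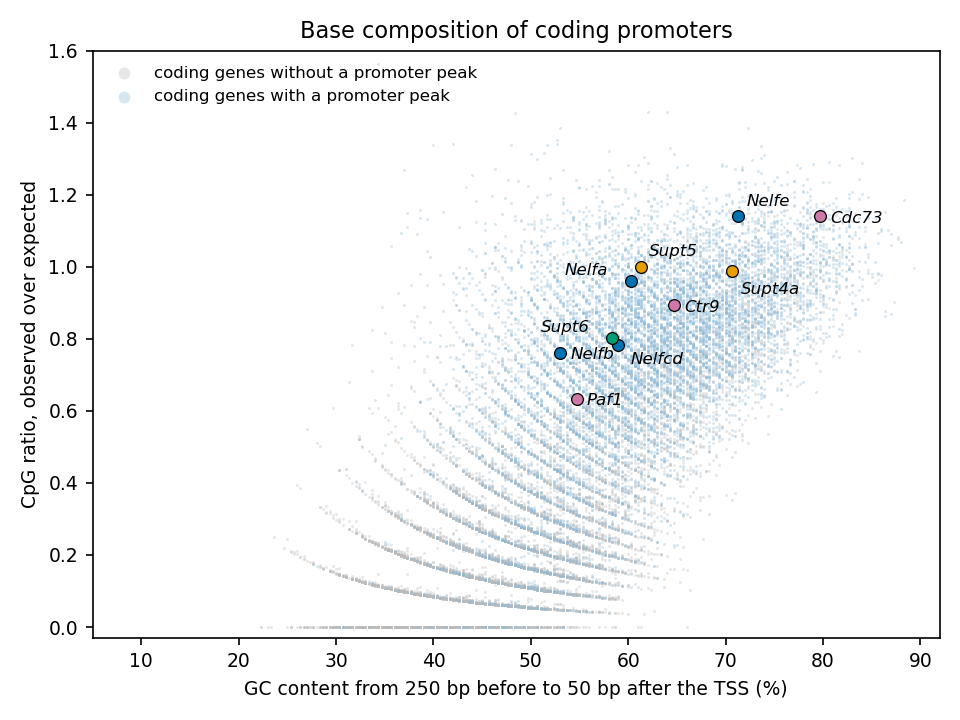
GC content in percent against the observed over expected CpG ratio of each coding promoter from 250 bp before to 50 bp after the TSS, for genes with (blue) and without (grey) an H3K27ac promoter peak, and the elongation genes as named points coloured by complex. The named points lie between ratios of 0.634 (Paf1) and 1.14 (Nelfe and Cdc73), and 3 coding promoters above a ratio of 1.6 are not drawn.

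In the same window, 10 short motifs were sought on both strands, and no match overlapped another in the 10 genes. The windows of Nelfe and Paf1 also hold the TSS of Skiv2l and Med29, and that of Supt6 lies in Sdf2. Matches and base composition there cannot be assigned to a single gene. GGGCGG was found in all 10, in 64.4% of marked and in 45.0% of all coding promoters, with 4 matches each at Nelfe and Supt4a. CCAAT was found in Nelfa and Paf1 (38.7% of all and 38.5% of marked coding promoters). At Paf1 it occurred 3 times, and 2 of these stand in the sequence printed above.

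AAGATGGC was found in Nelfcd and Supt5 (3.06% of all and 4.9% of marked coding promoters), in Nelfcd at 123 to 116 bp before the TSS and therefore outside the peak. CCCAGAATG was found in Supt4a, 17 to 9 bp before the TSS (0.686% and 0.834%). CCGGAAGT, an ETS factor motif, was found in Ctr9 at 11 to 18 bp after the TSS (4.96% and 8.58%). TATAAA was found in Nelfb (12.4% and 6.62%), 229 to 224 bp before the TSS. The motifs CGCATGCG of NRF1, the E-box CACGTG, the CRE TGACGTCA and the octamer ATGCAAAT had no match in the 10 windows, and were found in 2.61%, 7.74%, 2.46% and 1.57% of all coding promoters and in 3.76%, 10.5%, 3.46% and 1.3% of marked ones.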

How the data were processed

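H3K27ac ChIP-seq peaks of control mESCs were used as the authors deposited them, in 1 list pooled over 2 replicates that gives start and end positions in base pairs (mm10) and no counts, scores or p-values. According to the methods, reads were trimmed with Cutadapt, mapped with bwa meme to a combined genome of mouse and human spike-in, cleared of duplicates with Picard (version 2.9.1) and of poorly mapped reads with samtools (version 1.4). Peaks were called with LanceOtron, merged when close, and filtered by height and by distance to ATAC-seq summits.

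Peaks were intersected with protein-coding and lincRNA genes and transcripts of GENCODE release M21 (GRCm38), an earlier release than the study's. Promoters were ±1 kb around each TSS, an overlap of at least 1 bp counted, and the TSS of the isoform of longest span set distances. Sequences were read from the GRCm38 reference, which is not the genome of the E14 line. Promoter sequences of the RefSeq annotation were identical at Nelfb, Supt5 and Cdc73. At the other genes they differed or were not found, so distances in bases depend on the TSS chosen. No test was run, because a pooled list has no replicate error. The share of marked coding genes has a 95% Wilson interval, which covers counting error only.

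The 10 genes and the lists were chosen with earlier results of these data known. Genes named besides them share a promoter peak with 1 of the 10, hold the nearest other peak, are unmarked members of the lists or mark cell types. The remaining PAF1 complex subunits were named after their values were seen. The overlap functions were tested on simulated data, where 2000 of 2000 promoter calls were recovered. Computation was in Python 3.11.15 (pandas 2.3.3, numpy 2.4.6, scipy 1.17.1) and plots were drawn with matplotlib 3.10.9.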

Additional observations from a re-analysis of the deposited data

How the results depend on the processing

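All 10 genes stayed marked with promoter windows of 500 bp or 2 kb, with a TSS itself in the peak, with the longest isoform only, with every annotated transcript and when 500 bp or more had to overlap. Without peaks narrower than 1 kb, 9 stayed marked and Nelfcd did not. Of 70 single promoter calls over 7 alternatives this was the 1 that changed. The share of marked coding genes, 51.0%, was 50.6% with windows of 500 bp, 51.9% with 2 kb, 47.7% with a TSS itself in the peak, 48.8% with the longest isoform, 51.8% with every transcript, 49.6% when 500 bp or more had to overlap and 45.6% without peaks narrower than 1 kb. The median number of flank peaks, 3, was 1.5 within 25 kb and 6 within 100 kb (1 and 4 in marked coding genes), and 2 within 50 kb of the TSS, where marked coding genes also had 2. The median CpG ratio, 0.927, was 0.689 within 1 kb of the TSS (0.634 in marked coding genes). The median width, 1776 bp, was 1487 bp without shared peaks. By peak midpoint there were also 0 gene body peaks. No paired analysis was possible because the deposited list pools both control replicates, and leaving out each replicate was not run for the same reason. An unlisted peak may have failed a threshold or lacked signal, and the list does not tell these apart.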
